A study of Mus musculus with 18 samples.

Results

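Trp53, the gene of the tumour suppressor p53, and 9 genes that p53 is known to transcribe were followed in injured sensory neurons. The 9 targets are Mdm2, Cdkn1a, Btg2, Ccng1, Trp53inp1, Sesn1, Phlda3, Eda2r and Aen. The genes were chosen by name, as textbook targets of p53, most of them from the growth arrest and feedback arms of the pathway and Aen from the apoptotic arm. The rule used no measured value, but it was set with earlier results of these data known. They make up 10 of the 47643 genes in the count tables, and all 10 were among the 13771 genes with enough reads to be tested.

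RNA was sequenced from spot cultures of embryonic dorsal root ganglia (eDRG) of CD-1 mice taken at e13.5. The axons were cut with a blade, and libraries were made at 1, 3, 8, 16 and 24 hours post injury (HPI). Uninjured controls were collected at DIV7 (7 days in vitro), and the study's text places the cut at DIV7 as well, so that injured cultures would have been older than the controls by their time after injury, and time in culture cannot be told apart from time after injury. Each of the 6 groups had 3 replicates, 18 libraries in all. The controls, like the injured cultures, grew with nerve growth factor and with 5-fluorodeoxyuridine (FDU), a mitotic inhibitor that blocks the synthesis of thymidine nucleotides, so every fold change is between cultures that share the drug, and its effect on these genes cannot be told apart from their resting level. The cultures hold whole neurons, with cell bodies and axons, and no axon-only sample was taken.

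In most cells p53 protein is made and destroyed continuously. Stress such as DNA damage slows the destruction, and p53 then binds a pair of copies of a 10-base half-site near its target genes. Mdm2 is both a target and the ubiquitin ligase that marks p53 for destruction, which closes a feedback loop. Much of this control acts on the protein, which RNA sequencing does not measure. In postmitotic neurons the pathway is known for its part in cell death after loss of trophic support, and also in axon growth.

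The promoter letters are shown first because p53 binds DNA near its target genes. Whether it acts on these genes through these windows was not tested. Promoter windows reaching from 250 bases before to 50 bases after a start site were read from RefSeq on GRCm38.p6, and 9 of the 10 genes had an entry, with 12 windows between them. No window was at hand for Trp53inp1. A p53 half-site, searched on both strands as the 10-letter consensus with no mismatch, was found in 7 of the 12 windows and in 6 of the 9 genes. Among all genes with a window, 9.55% held a half-site, and so did 8.36% of the 32851 windows. Each stretch below reads 5′ to 3′ on the strand of the gene and ends before the start site, with the half-site in capitals.
Cdkn1a, chr17:29090881-29090962, plus strand: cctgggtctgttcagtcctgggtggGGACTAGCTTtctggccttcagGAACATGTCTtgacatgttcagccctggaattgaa
Mdm2, chr10:117710910-117710969, minus strand: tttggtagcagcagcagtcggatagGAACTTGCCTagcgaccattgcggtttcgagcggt
Ccng1, chr11:40755437-40755496, minus strand: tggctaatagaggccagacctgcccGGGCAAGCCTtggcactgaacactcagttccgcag
Trp53, chr11:69580259-69580318, plus strand: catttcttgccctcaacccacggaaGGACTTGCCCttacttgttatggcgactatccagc
Sesn1, chr10:41887241-41887300, plus strand: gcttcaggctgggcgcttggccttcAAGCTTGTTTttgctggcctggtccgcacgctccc

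Cdkn1a was the single gene of the group with 2 half-sites in one window, starting 73 and 51 bases upstream of its first start. The window of its second start held none. The half-sites of Mdm2, Ccng1 and Trp53 began 186, 185 and 75 bases upstream. In Sesn1 the half-site lay 173 bases upstream of the second of its starts, and the window of the first held none. Aen carried the half-site GGGCTTGTCC at chr7:78895937-78895946 on the plus strand, 10 bases past its first start and 121 bases before its second. The windows of Btg2, Phlda3 and Eda2r held no exact half-site. Sites further away, such as those in first introns, lie outside these windows. The 7-letter AP-1 site TGANTCA was in 7.81% of all windows and in none of these genes' windows.

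Btg2 was the only gene of the 9 with a cyclic AMP response element, TGACGTCA, in its window. The element was searched after its letters had been noticed there, and 1.79% of all windows held one. It is shown in capitals because Btg2 gave the steepest early rise of the group. Any part of the element in that rise was not tested.
Btg2, chr1:134079289-134079346, minus strand: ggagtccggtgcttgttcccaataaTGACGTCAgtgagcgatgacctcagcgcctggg
The element began 166 bases before the start site. A match in letters is a description of the window, and neither p53 nor any other factor was measured on it.

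The libraries held 9478891 to 23082327 counts on genes. The reads carry no molecular identifiers, so a count is of reads and not of molecules. Markers of sensory neurons were strong in every library, with 7 genes summing to 7688 to 9704 CPM, counts scaled to the same total in each library, whereas 4 endothelial markers together stayed at or under 1.42 CPM. Leftover ribosomal RNA set a few libraries apart. The residual rRNA genes summed to 40290 CPM in replicate 1 and 6049 CPM in replicate 2 at 16 HPI and to 11400 CPM in replicate 3 at 3 HPI, against 153 to 262 CPM in the controls. Values without the first and the last of these libraries are given where they change a call or a direction. In a bulk sample, fewer cells of a type and less RNA per cell cannot be told apart. The labels do not say that replicates came from separate litters, so the p-values measure the spread between these samples, which may be technical.

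Levels below are CPM normalized by the trimmed mean of M values (TMM), and levels are compared between genes only as RPKM, which divides by the kilobases of exon. In the controls Ccng1 was the most abundant of the 10 at 58.2 ± 2.50 RPKM (SD, n = 3), followed by Cdkn1a at 27.9 ± 3.98 RPKM and Aen at 13.53 ± 0.337 RPKM. Mdm2 stood at 6.32 ± 0.195 RPKM. Trp53inp1 at 4.56 RPKM, Trp53 at 4.33 RPKM, Sesn1 at 4.05 RPKM and Phlda3 at 3.93 RPKM followed, and each overlapped its neighbour in that order. Btg2 at 0.701 ± 0.158 RPKM and Eda2r at 0.177 ± 0.0491 RPKM were the lowest, below and apart from all the others. The resting cultures held far more transcript of Ccng1 and Cdkn1a per kilobase than of Trp53 itself.

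**Figure D1:**
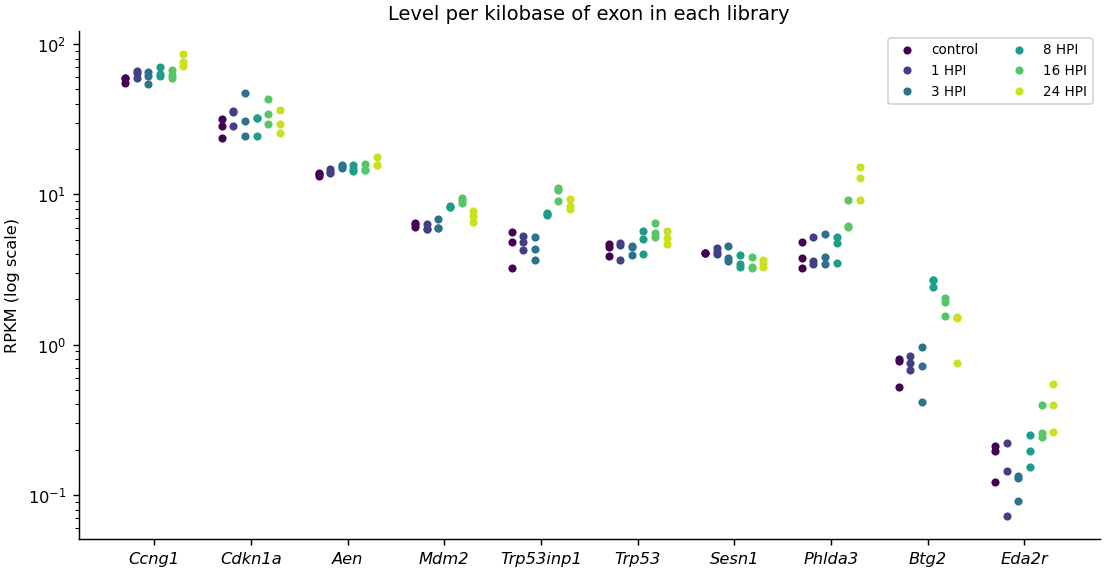
Level of each gene in RPKM on a log axis, one point per library, coloured from control to 24 HPI and ordered by the control mean. Ccng1 lies at the top in every group and Eda2r at the bottom, and the points of Phlda3 and Trp53inp1 at 16 and 24 HPI sit above their control points.

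Each time point was compared with the uninjured control, which asks when the pathway moves after axotomy. All 5 comparisons share the same 3 control libraries. None of the 10 genes was past an adjusted p of 0.05 at 1 or 3 HPI in edgeR's quasi-likelihood test, 3 were higher at 8 HPI, 7 at 16 HPI and 7 at 24 HPI, and none was lower at any time. The genes past the test at 8 HPI were Mdm2, Trp53inp1 and Btg2. At 16 HPI Trp53, Cdkn1a, Phlda3 and Eda2r joined them, and at 24 HPI the 7 were Trp53, Btg2, Ccng1, Trp53inp1, Phlda3, Eda2r and Aen.

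Over all genes, 0.276% were past the test at 1 HPI and 0.189% at 3 HPI. At each of those times 2 of the 10 genes had an unadjusted p under 0.05. Of the 13771 genes tested, 1769 at 1 HPI and 1999 at 3 HPI had one too. The DESeq2 Wald test also passed 0 of the 10 at both times. Among all genes 3.78% rose and 3.9% fell at 8 HPI, 10.7% rose and 11.5% fell at 16 HPI, and 5.99% rose and 9.03% fell at 24 HPI. At 8, 16 and 24 HPI the median log2 fold change of the 10 genes was 0.15, 0.47 and 0.34, and that of all genes tested was -0.0009, -0.0022 and 0.002. Changes over 2-fold were fewer. Btg2 alone passed that size at 8 HPI, where 0.254% of all genes rose so far, Btg2 and Trp53inp1 did at 16 HPI beside 1.18% of all genes, and Phlda3 and Eda2r did at 24 HPI beside 0.639%. Over the whole time course, tested with the 5 time terms together, 8 of the 10 genes changed, as did 30.0% of all genes. The exceptions were Cdkn1a (adjusted p = 0.132) and Sesn1 (adjusted p = 0.0714). Groups without overlap, named for single genes below, occurred among all genes too. At 3, 8, 16 and 24 HPI 3.94%, 6.29%, 10.9% and 8.47% of all genes lay wholly above the controls. At the same times 3.75%, 5.96%, 9.49% and 7.92% lay wholly below them. Of the 10 genes 1, 5, 7 and 7 lay wholly above, and 0, 1, 1 and 1 wholly below.

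**Figure D2:**
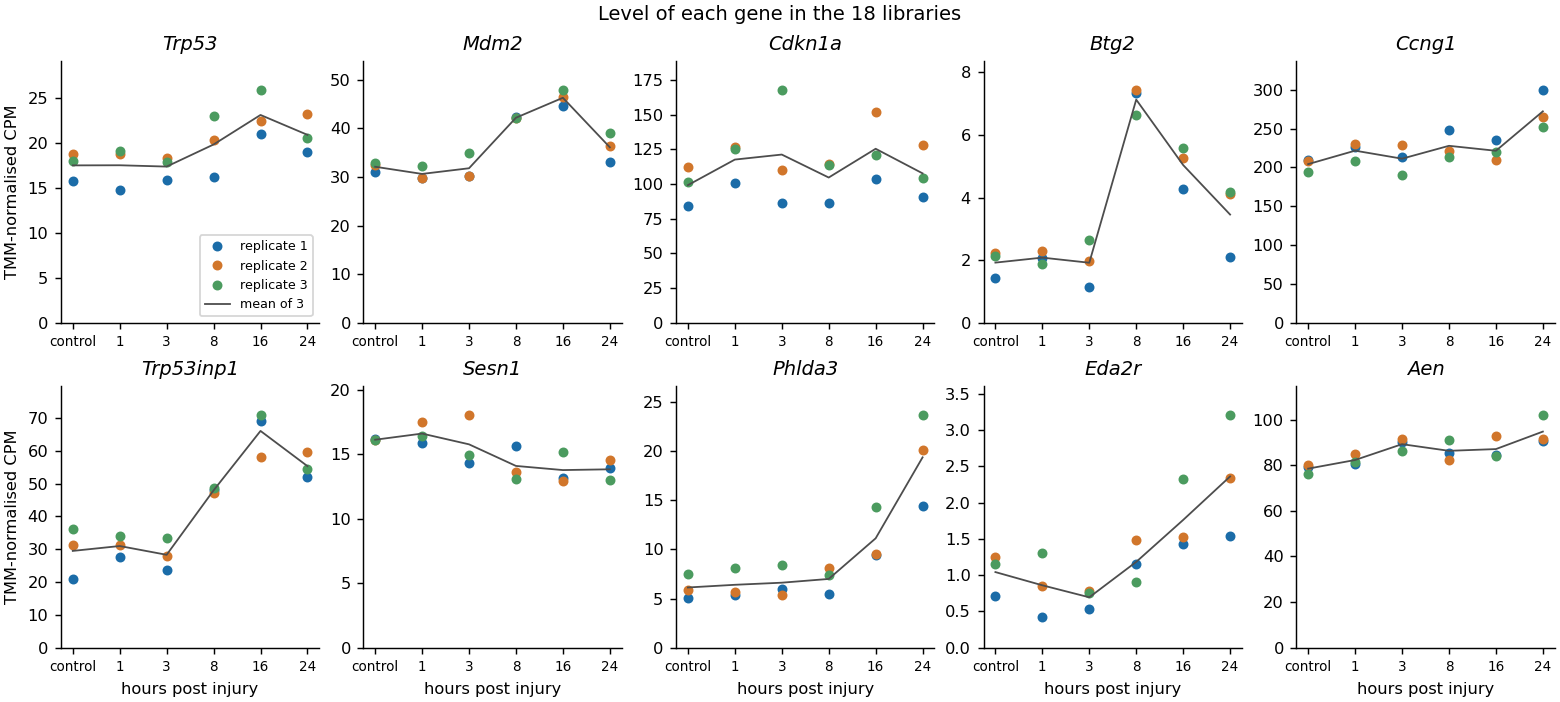
TMM-normalised CPM of each gene in the 18 libraries by time after injury, with points coloured by replicate number and a line through the means of 3; each vertical axis starts at 0 and has its own scale. Btg2 peaks at 8 HPI, Trp53, Mdm2 and Trp53inp1 at 16 HPI, and Ccng1, Phlda3, Eda2r and Aen at 24 HPI, while Cdkn1a overlaps its controls at every time.

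Trp53 (ENSMUSG00000059552.13, chr11:69580359-69591873 on GRCm38) encodes the transcription factor itself. Its level in the controls was 15.8, 18.8 and 17.96 CPM, and it was 14.8 to 19.1 CPM at 1 HPI and 15.9 to 18.3 CPM at 3 HPI. At 16 HPI the 3 libraries stood at 21.01, 22.5 and 25.9 CPM, and at 24 HPI at 19.0, 23.2 and 20.6 CPM. All of these late values lay above all controls, the lowest at 24 HPI by a small margin. The log2 fold change was 0.40 ± 0.08 (SE) at 16 HPI (adjusted p = 0.001) and 0.26 ± 0.08 at 24 HPI (adjusted p = 0.0352). The value at 24 HPI was lost in 7 of 15 alternative settings, among them without any one of the 3 controls (adjusted p = 0.0565 to 0.156) and without replicate 1 or 2 at 24 HPI (adjusted p = 0.114 and 0.16). At 8 HPI, with values of 16.2, 20.3 and 23.0 CPM, the groups overlapped and the log2 fold change of 0.18 was not past the test (adjusted p = 0.199).

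Mdm2 (ENSMUSG00000020184.14, chr10:117688875-117710758), the ubiquitin ligase that removes p53, rose and then fell. Its controls were tight at 31.0, 32.4 and 32.9 CPM, and at 1 and 3 HPI the level stayed between 29.8 and 34.9 CPM. At 8 HPI the 3 libraries gave 42.4, 42.2 and 42.1 CPM, and at 16 HPI 44.6, 46.5 and 47.9 CPM. Neither group overlapped the controls, and replicates lay closer together at 8 HPI than at any other time. The log2 fold change was 0.39 ± 0.06 at 8 HPI (adjusted p = 3.32e-04) and 0.53 ± 0.06 at 16 HPI (adjusted p = 2.01e-06), about as large in each of the 3 replicates at 16 HPI (0.52 to 0.54). By 24 HPI the level was 33.0, 36.3 and 39.1 CPM, a log2 fold change of 0.17 ± 0.06 against control that missed the threshold (adjusted p = 0.0536) and passed it without replicate 1 (adjusted p = 0.0441). The fall from 16 to 24 HPI passed the test itself, at a log2 change of -0.36 ± 0.06 (adjusted p = 3.63e-04), and was seen in all 3 replicates.

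Cdkn1a (ENSMUSG00000023067.13, chr17:29090976-29100727) encodes p21, the inhibitor of cyclin-dependent kinases through which p53 stops the cell cycle. The controls stood at 84.1, 112 and 101 CPM, and at 16 HPI the values were 104, 152 and 121 CPM. The lowest library at 16 HPI lay below the highest control, so the groups overlapped, although each replicate was higher than the control of its own number. The log2 fold change at 16 HPI was 0.34 ± 0.11 (adjusted p = 0.0394), and 7 of 15 alternative settings lost it. It missed the threshold without any one control (adjusted p = 0.0625 to 0.153), without replicate 1 at 16 HPI (adjusted p = 0.0961) and without replicate 2 (adjusted p = 0.202). At 24 HPI the level was 90.4, 128 and 104 CPM, a log2 fold change of 0.12 ± 0.11 (adjusted p = 0.537).

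The highest Cdkn1a value of the series, 168 CPM, was at 3 HPI in replicate 3, the library with 11400 CPM of residual rRNA. The other libraries at 3 HPI had 86.3 and 110 CPM, within the control range. With all libraries the log2 fold change at 3 HPI was 0.27 ± 0.11 (adjusted p = 0.275), and without that library it was 0.0008 (adjusted p = 0.999). At 8 HPI, where Btg2 and Mdm2 were up, Cdkn1a had 86.2, 114 and 114 CPM and a log2 fold change of 0.08 ± 0.12. The gene's exons share 273 bases, 7.68% of their length, with an unnamed model on the other strand, AC167363.2. The sources used here do not state whether the counting used strand, and the part of that model in the Cdkn1a counts was not tested. No other gene of the group has an exonic overlap.

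Btg2 (ENSMUSG00000020423.6, chr1:134075170-134079120), an antiproliferative gene that works with the machinery that shortens mRNA tails, made the largest change at 8 HPI. It was low before, with 1.43, 2.22 and 2.12 CPM in the controls and 1.13 to 2.65 CPM at 1 and 3 HPI. At 8 HPI it reached 7.33, 7.43 and 6.63 CPM, and at 16 HPI it held 4.27, 5.27 and 5.57 CPM. Both groups lay wholly above the controls. Btg2 gained 1.91 ± 0.20 on the log2 scale at 8 HPI (adjusted p = 3.6e-06), a 3.75-fold rise, and 1.40 ± 0.21 at 16 HPI (adjusted p = 5.29e-05). At 24 HPI the libraries split, replicate 1 being at 2.09 CPM and the others at 4.12 and 4.17 CPM, so the lowest overlapped the controls. The log2 fold change was then 0.87 ± 0.22 (adjusted p = 0.00945), and without replicate 3 at 24 HPI it missed the threshold (adjusted p = 0.0613).

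Ccng1 (ENSMUSG00000020326.7, chr11:40748552-40755311) encodes cyclin G1, which recruits a phosphatase to Mdm2. Its 3 control libraries held 210, 209 and 194 CPM. From 1 to 16 HPI the level ranged between 191 and 248 CPM, and no comparison up to 16 HPI passed the test. At 24 HPI it was 300, 265 and 252 CPM, every library above every earlier library of the series. This is a log2 fold change of 0.41 ± 0.06 (adjusted p = 3.82e-05).

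Trp53inp1 (ENSMUSG00000028211.11, chr4:11156431-11174379), whose product binds p53 in nuclear bodies and takes part in autophagy, went through the 2-fold mark at 16 HPI. Its controls were spread, at 20.98, 31.2 and 36.3 CPM. At 8 HPI the values were 48.2, 47.0 and 48.7 CPM, at 16 HPI 69.2, 58.1 and 70.9 CPM, and at 24 HPI 51.9, 59.8 and 54.4 CPM. None of these 9 libraries overlapped the controls. Against control, Trp53inp1 was higher by a log2 change of 0.72 ± 0.12 after 8 h (adjusted p = 6.48e-04), 1.18 ± 0.11 after 16 h (adjusted p = 3.28e-07) and 0.92 ± 0.11 after 24 h (adjusted p = 1.61e-05). Because the control of replicate 1 was the lowest, the difference within replicates at 16 HPI was 1.72 in replicate 1 against 0.89 and 0.96 in the others.

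Sesn1 (ENSMUSG00000038332.12, chr10:41809935-41908424) encodes sestrin 1, an inhibitor of mTORC1 signalling that also limits oxidative stress, and it was the only gene of the group whose late values lay below control. The 3 controls stood at 16.1 CPM each. The values were 13.1 to 15.6 CPM at 8 HPI, 13.2, 12.9 and 15.2 CPM at 16 HPI and 13.9, 14.6 and 13.0 CPM at 24 HPI. No library from 8 HPI on reached the controls. At 8, 16 and 24 HPI 5.96%, 9.49% and 7.92% of all genes likewise lay wholly below them. The log2 fold change of -0.23 ± 0.10 at 16 HPI (adjusted p = 0.0992) and of -0.23 ± 0.09 at 24 HPI (adjusted p = 0.111) missed the threshold. The first passed it without replicate 3 at 16 HPI (-0.34, adjusted p = 0.0268).

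Phlda3 (ENSMUSG00000041801.5, chr1:135766119-135769136), which encodes a small PH domain protein that competes with Akt for membrane lipids, rose late, and furthest of the group at 24 HPI. It had 5.04, 5.84 and 7.48 CPM in the controls and 5.37 to 8.45 CPM from 1 to 8 HPI. At 16 HPI it stood at 9.47, 9.53 and 14.3 CPM, and at 24 HPI at 14.4, 20.0 and 23.6 CPM. Neither group overlapped the one before it, with 14.3 against 14.4 CPM at the closest. Phlda3 was up by 0.86 ± 0.12 on the log2 scale at 16 HPI (adjusted p = 4.03e-05) and 1.66 ± 0.11 at 24 HPI (adjusted p = 1.55e-08), a 3.16-fold rise, and it lay between 1.49 and 1.76 within the 3 replicates.

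Eda2r (ENSMUSG00000034457.10, chrX:97333840-97377216), the receptor for ectodysplasin A2 in the TNF receptor family, was the rarest of the group, with 8 to 70 counts per library. The controls held 0.713, 1.26 and 1.16 CPM, and 3 HPI held 0.540, 0.786 and 0.758 CPM. At 16 HPI the values were 1.42, 1.53 and 2.33 CPM, and at 24 HPI 1.53, 2.34 and 3.21 CPM. Both late groups lay above the controls. The log2 fold change at 24 HPI was 1.20 ± 0.25 (adjusted p = 0.00227). It was lost in 1 of 14 alternative settings, the fit without the replicate block (adjusted p = 0.138). The log2 fold change at 16 HPI, 0.77 ± 0.27 (adjusted p = 0.0423), was lost in 9 of 14. It missed the threshold without any one control (adjusted p = 0.0522 to 0.178), without replicate 1 or 3 at 16 HPI (adjusted p = 0.106 and 0.184) and without the libraries highest in residual rRNA (adjusted p = 0.115).

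Aen (ENSMUSG00000030609.18, chr7:78895854-78911209), a nuclease that digests DNA and RNA in apoptosis, made a small change. The controls held 79.1, 80.1 and 76.3 CPM, and the level at 24 HPI was 90.8, 91.5 and 102 CPM. The groups did not overlap, and the log2 fold change was 0.27 ± 0.06 (adjusted p = 0.002). At 3 HPI the level was already 90.1, 91.4 and 86.2 CPM, above all controls, with a log2 fold change of 0.19 ± 0.06 that was not past the test (adjusted p = 0.129).

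**Figure D3:**
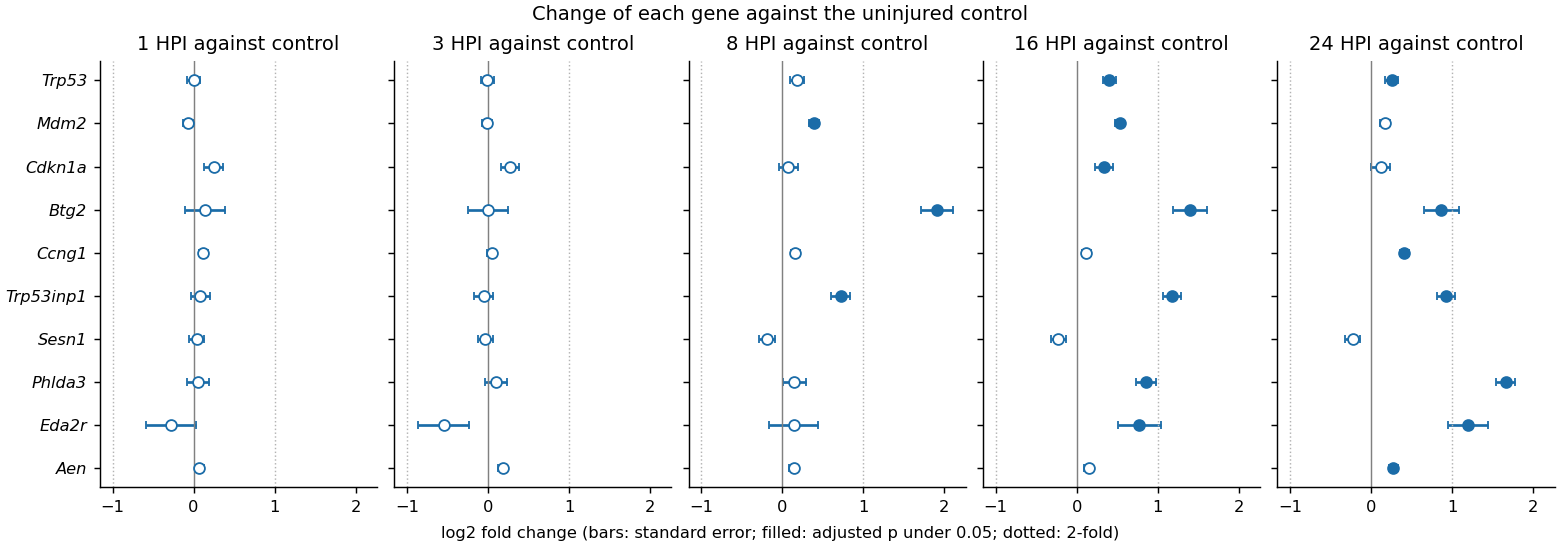
Log2 fold change of each gene against the uninjured control at 5 times after injury; bars are the standard error, filled points have an adjusted p under 0.05, and dotted lines mark 2-fold. Filled points appear from 8 HPI on, all to the right of 0, and Sesn1 lies left of 0 from 8 HPI without being filled.

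Neighbouring time points were compared to place the changes between them. Each step sets its 2 time points against each other without the control level. Its replicate term and its spread still come from the fit to all 18 libraries, controls included. From 1 to 3 HPI none of the 10 genes passed edgeR's test, nor did any gene at all (0.0%). The DESeq2 Wald test passed 0 of the 10. An unadjusted p under 0.05 was found for 1 of the 10, Aen, and for 1035 of the 13771 genes tested. From 3 to 8 HPI 3 genes rose, where 1.74% of all genes rose and 0.559% fell. Btg2 gained 1.91 ± 0.20 on the log2 scale (adjusted p = 3.8e-06), Trp53inp1 0.77 ± 0.12 (adjusted p = 3.89e-04) and Mdm2 0.41 ± 0.06 (adjusted p = 2.47e-04).

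From 8 to 16 HPI Trp53inp1 rose further, by a log2 change of 0.46 ± 0.11 (adjusted p = 0.00687), and Phlda3 began its rise, by 0.71 ± 0.13 (adjusted p = 7.45e-04). Over the same interval Btg2 fell by 0.51 on the log2 scale (SE 0.17, adjusted p = 0.0493), in all 3 replicates and without overlap, a call lost in 10 of 15 alternative settings. Without replicate 1 at 8 HPI the fall of Btg2 was -0.30 (adjusted p = 0.323), and it was lost without replicate 2 at 8 HPI or any one library at 16 HPI (adjusted p = 0.0777 to 0.136). Without replicate 1 at 16 HPI the log2 change of Trp53inp1 was 0.34 (adjusted p = 0.061), and without replicate 3 at 8 HPI it was 0.38 (adjusted p = 0.0604). The fit without the libraries highest in residual rRNA lost both Trp53inp1 (0.34, adjusted p = 0.0521) and Btg2 (-0.51, adjusted p = 0.0884) between these times. It gained Cdkn1a, at 0.27 (adjusted p = 0.0125) against 0.26 (adjusted p = 0.14) with all libraries. Of all genes 7.3% rose and 7.86% fell between these times. Without overlap, 9.65% lay wholly above and 8.06% wholly below their values at 8 HPI.

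From 16 to 24 HPI Phlda3 gained a log2 change of 0.81 ± 0.11 (adjusted p = 5.08e-05) and Ccng1 0.29 ± 0.06 (adjusted p = 0.00153), while Mdm2 fell as given above. Of all genes 3.59% rose and 6.22% fell. Without overlap, 6.57% lay wholly above and 8.27% wholly below their values at 16 HPI. Btg2 had a log2 change of -0.53 ± 0.18 over this interval (adjusted p = 0.0733), and Trp53inp1 of -0.25 ± 0.11 (adjusted p = 0.146). Between 16 and 24 HPI, then, genes of one pathway passed the test in opposite directions, Phlda3 and Ccng1 upwards and Mdm2 downwards.

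**Figure D4:**
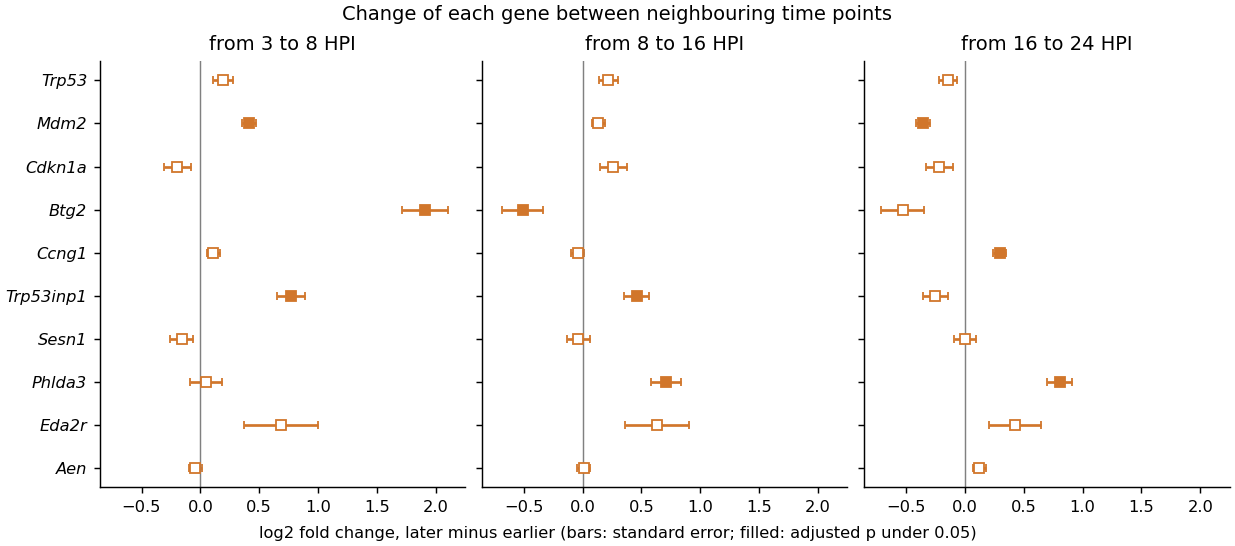
Log2 fold change of each gene between neighbouring time points, later minus earlier; bars are the standard error and filled squares have an adjusted p under 0.05. Btg2, Trp53inp1 and Mdm2 are filled on the right from 3 to 8 HPI, and Mdm2 is filled on the left from 16 to 24 HPI while Phlda3 and Ccng1 are filled on the right.

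The shape over the 18 libraries was also described by the Pearson correlation of log2 CPM after the replicate number was removed. Differences between replicate numbers therefore do not enter r. It has no p here because the libraries share time points and replicate numbers. Mdm2 and Btg2 were the most alike pair (r = 0.90), then Trp53 and Trp53inp1 (0.86) and Phlda3 and Eda2r (0.85). Cdkn1a stayed between -0.20 and 0.20 with every other gene of the group, and Sesn1 was negative with all of them. Outside the group, the gene most like Mdm2 was Atf3 (r = 0.97), a stress-induced transcription factor known as a marker of injured sensory neurons. The gene most like Btg2 was Bbc3 (r = 0.96), which encodes the BH3 protein PUMA and is itself a p53 target. Dusp1, a phosphatase of MAP kinases, was among the 3 nearest genes of both. The nearest to Trp53 was Rhoq (0.94), to Trp53inp1 Bpifc (0.94), to Phlda3 Arhgap31 (0.94), to Ccng1 Eif3e (0.92), to Eda2r Nbr1 (0.90) and to Aen Trmt6 (0.88). Cdkn1a and Sesn1, which were not past the test over the course, were not matched.

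Further lists place these genes in their pathway, and some genes are counted in several lists. Ppm1d is among the other targets and the regulators. Sesn2 is among the other targets and the paralogs, and Mdm4 among the regulators and the paralogs. Beside their counts, 30.5% of all genes were past the test in at least one of the 5 comparisons with control. Of 9 tested p53 targets that act in apoptosis, 7 were past the test at some time. At 8 HPI 1 was higher and 1 lower, when 3.78% of all genes rose and 3.9% fell. At 16 HPI 3 were higher and none lower, when 10.7% of all genes rose and 11.5% fell. At 24 HPI 5 were higher and none lower, when 5.99% of all genes rose and 9.03% fell. Bbc3 held 24.1, 27.5 and 40.7 CPM in the controls and 60.5, 55.3 and 62.5 CPM at 8 HPI, with no overlap. It gained 0.98 ± 0.11 on the log2 scale at 8 HPI (adjusted p = 5.38e-06) and was 0.41 ± 0.11 above control at 24 HPI (adjusted p = 0.0108). Pidd1, a scaffold that activates caspase 2, rose by a log2 change of 0.76 ± 0.16 at 24 HPI (adjusted p = 0.00211) and Perp, a membrane protein, by 0.58 ± 0.15 (adjusted p = 0.00982). Siva1 was lower at 8 HPI, at -0.62 ± 0.18 (adjusted p = 0.0375). Pmaip1, which encodes NOXA, and the death receptor gene Fas were too low to be tested. Pmaip1 held 0.255 to 0.628 CPM in the controls and 0.920, 1.12 and 1.10 CPM at 24 HPI.

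Among 19 other p53 targets 11 were past the test at some time, 6 higher and none lower at 8 HPI, 7 higher and 2 lower at 16 HPI, and 3 higher and 1 lower at 24 HPI. Of all genes 3.78% rose at 8 HPI, 10.7% rose and 11.5% fell at 16 HPI, and 5.99% rose and 9.03% fell at 24 HPI. Gadd45a, a stress sensor that binds Pcna, stood at 16.4, 30.0 and 35.9 CPM in the controls and 43.1, 56.3 and 59.4 CPM at 8 HPI. It gained 0.99 ± 0.10 on the log2 scale at 8 HPI (adjusted p = 2.37e-06) and stood at -0.09 ± 0.10 at 24 HPI (adjusted p = 0.628), the time at which Phlda3 was highest. Plk2, a polo-like kinase, rose by 0.69 ± 0.07 and Ddit4, an inhibitor of mTORC1, by 0.70 ± 0.11 on the log2 scale at 8 HPI. Ptprv, a phosphatase gene, was lower at 16 HPI, at -0.76 ± 0.21 (adjusted p = 0.0124).

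Of 19 tested regulators and cofactors of p53, 10 were past the test at some time. None was higher and 2 were lower at 8 HPI, when 3.78% of all genes rose and 3.9% fell. At 16 HPI 6 were higher and 3 lower, against 10.7% and 11.5% of all genes. At 24 HPI 1 was higher and 3 lower, against 5.99% and 9.03%. At 16 HPI the list had a median of 0.15 on the log2 scale, and at 24 HPI of 0.01. Ppm1d, the phosphatase WIP1 that switches p53 off, had 3.06, 4.73 and 5.26 CPM in the controls and 6.62, 6.35 and 6.66 CPM at 16 HPI, a log2 fold change of 0.60 ± 0.16 (adjusted p = 0.00819). The checkpoint kinase Chek2 rose by 0.58 ± 0.17, the p53 inhibitor Ppp1r13l by 0.50 ± 0.14 and the deacetylase Sirt1 by 0.46 ± 0.08 at the same time. The genes that fell at 16 HPI were the kinase gene Atm at -0.31 ± 0.08, Trp53bp1 at -0.31 ± 0.05 and the deubiquitinase gene Usp7 at -0.20 ± 0.04 on the log2 scale. Mdm4, the partner of Mdm2, had 71.5 to 100 CPM in the controls and 68.1 to 88.1 CPM at 16 HPI, a log2 fold change of -0.16 ± 0.07 that was not past the test (adjusted p = 0.0844). Mdm2 and Mdm4 thus differed in their calls at 16 HPI, and the difference between them was not tested.

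**Figure D5:**
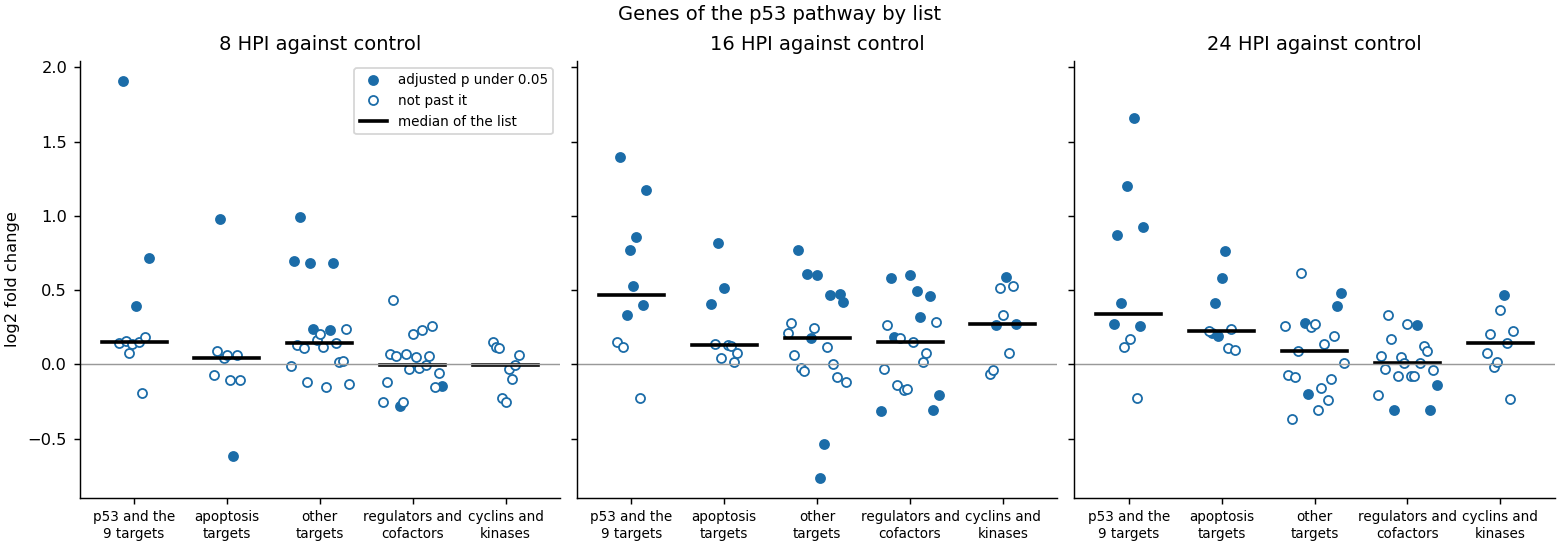
Log2 fold change against control at 8, 16 and 24 HPI of p53 with its 9 targets and of 4 lists of the pathway; each point is a gene, filled with an adjusted p under 0.05, and the bar is the median of the list. At 16 HPI the medians run from 0.13 in the apoptosis targets to 0.47 in p53 with its 9 targets, and both directions appear among the other targets and the regulators.

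Paralogs of the group had moves of their own. Of 8 tested, 5 were past the test against control at some time, all upwards, 3 of them at 8 HPI and 4 at 16 HPI, where 3.78% and 10.7% of all genes rose. From 16 to 24 HPI 2 of the 8 fell, as did 6.22% of all genes. Btg1, the paralog of Btg2, rose by a log2 change of 0.85 ± 0.14 at 8 HPI (adjusted p = 9.61e-04), and Sesn2, the paralog of Sesn1, by 0.68 ± 0.09 (adjusted p = 4.35e-05), at a time when Sesn1 stood at -0.19 ± 0.10 (adjusted p = 0.265). Ccng2 rose by 0.26 ± 0.07 at 16 HPI (adjusted p = 0.0111), when Ccng1 was not past the test. Cdkn1b, the p27 paralog of Cdkn1a, was higher by 0.21 ± 0.06 (log2) at 24 HPI (adjusted p = 0.033), and Trp53inp2 of 0.22 ± 0.06 at 8 HPI (adjusted p = 0.0369). These paralogs are distinct in sequence, but how reads that fit 2 genes were counted is not given in the sources used here.

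Of 9 tested cyclins, kinases and Pcna, the partners that p21 binds, 3 were past the test at some time. All 3 were higher at 16 HPI, where 10.7% of all genes rose. Ccne2, cyclin E2, rose by 0.59 ± 0.15 (adjusted p = 0.00676), Pcna, the sliding clamp of DNA replication, by 0.27 ± 0.08 (adjusted p = 0.0163) and Ccnd2, cyclin D2, by 0.27 ± 0.09 (adjusted p = 0.0423). Cdk2, the main target of p21, had at most 0.229 CPM in any library and was too low to be tested, and Cdk4 was present at 39.2 to 43.8 CPM in the controls. For Eda2r, the ligand gene Eda was present at 5.84 to 8.71 CPM in the controls and 5.95 to 8.83 CPM at 24 HPI, which overlap. Edaradd and Traf6, adaptors of the ectodysplasin pathway, rose by 0.64 ± 0.17 and 0.41 ± 0.09 at 16 HPI. These are 2 of the 3 genes tested of that list, at a time when 10.7% of all genes rose. Both fell again from 16 to 24 HPI, when 6.22% of all genes fell. At 24 HPI, when Eda2r was highest, none of the 3 was past the test (log2 fold changes of -0.03 for Edaradd and -0.10 for Traf6). Edar, the other receptor gene of that pathway, was too low to be tested. Which receptor either adaptor serves in these cultures was not tested.

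Genes of other cells are given beside the late rise. At 24 HPI 1 of 5 tested genes of dividing cells, 1 of 4 of fibroblasts and 1 of 2 of myeloid cells were higher. Of 5 tested genes of satellite glia and Schwann cells none was higher and 1 was lower. Of all genes 5.99% rose and 9.03% fell at that time. The 10 genes of dividing cells summed to 6.93 to 8.64 CPM in the controls and 8.15 to 11.6 CPM at 24 HPI. Of the 5 tested, Top2a was higher at 24 HPI by a log2 change of 1.44 ± 0.36 and Ccnb1 at 8 HPI by 0.98 ± 0.28. The 6 fibroblast genes summed to 2.59 to 9.70 CPM in the controls and 3.70 to 15.2 CPM at 24 HPI, and 1 of 4 tested, Dcn, was higher there by 2.22 ± 0.27. Dcn was also the second nearest gene to Eda2r (r = 0.88). The 5 myeloid genes summed to 3.55 to 5.75 CPM in the controls and 6.50 to 7.26 CPM at 24 HPI, without overlap, and 1 of 2 tested, Cd68, was higher at 16 HPI by 0.97 ± 0.25. Ptprc had at most 3 counts in every library from control to 16 HPI. The 10 genes of satellite glia and Schwann cells summed to 74.8 to 132 CPM in the controls and 76.0 to 109 CPM at 24 HPI. Most of that sum was S100b, which was lower at 24 HPI by a log2 change of -0.26 ± 0.07 (adjusted p = 0.0152). Erbb3, Sox10 and Cdh19 were at 0.442 to 0.908 CPM in the controls and 0.821 to 1.67 CPM at 24 HPI on average, with log2 fold changes of 0.85 to 0.89 that were not past the test (adjusted p = 0.0815 to 0.332). The part of other cells in the late rise of Phlda3, Eda2r, Ccng1 and Aen was not tested.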

How the data were processed

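Counts per gene from 18 libraries of eDRG spot cultures, 3 at each of 6 time points, were analysed. The authors deposited raw counts for 47643 genes per library, made from STAR alignments to mm10, without normalization. The study's methods name featureCounts with GENCODE vM20, the submitters' processing notes name HTSeq, and strandedness is not given in the sources used here. Between 25.2% and 33.2% of each library's reads fell on 5 entries that name no gene and were left out. Names and exons came from GENCODE vM21 (GRCm38), which matched 47224 identifiers.

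The 13771 genes that exceeded 1 CPM in 3 or more libraries were normalized by TMM and tested in R 4.3.3 with edgeR 4.0.16 (glmQLFit, glmQLFTest), in one model with terms for time point and replicate number. P-values are two-sided and Benjamini-Hochberg adjusted over all genes tested, and past the test means an adjusted p under 0.05. Same-numbered libraries deviated together from the means of their groups (r from 0.484 to 0.765 over 45 pairs), so the replicate number was kept as a block. Pairs of different numbers had r from -0.577 to -0.0423 over 90 pairs. Deviations within a group cancel, so this range mirrors the first and adds nothing to it. Log2 CPM for correlations had a prior count of 2. For correlations between genes the replicate number was removed from it, with the time points kept. Figures used Python 3.11.15 and matplotlib 3.10.9. The method was tested on simulated data.

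Named genes are the 10 genes, up to 4 genes of each list with the largest change past the test, and the 3 genes most correlated with each gene that changed over the course. Mdm4, Atm, Trp53bp1, Usp7, Erbb3, Sox10, Cdh19, Pmaip1, Fas, Cdk2, Cdk4, Cdkn1b, Eda, Edar and Ptprc were named after their values were seen. The 10 genes and the lists were chosen with earlier results of these data known. The alternatives were DESeq2 1.42.0 size factors or its Wald test, upper-quartile factors, other filters, no replicate block, a table with neither residual rRNA nor mitochondrial genes, a fit to the compared groups alone, each library left out and, chosen after seeing the data, a fit without the 2 libraries highest in residual rRNA.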

Additional observations from a re-analysis of the deposited data

Results flagged for a closer look

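The log2 changes against control of 5 genes differed between neighbouring time points, by edgeR's test of the step itself. From 3 to 8 HPI the step was 0.41 for Mdm2, 0.77 for Trp53inp1 and 1.91 for Btg2. From 8 to 16 HPI it was 0.46 for Trp53inp1, 0.71 for Phlda3 and -0.51 for Btg2. From 16 to 24 HPI it was -0.36 for Mdm2, 0.29 for Ccng1 and 0.81 for Phlda3. All 9 steps had one direction in 3 of 3 replicates. Groups of 3 libraries were not tested for single high or low samples.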

How the results depend on the processing

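Of 26 log2 changes of the 10 genes past the test, 12 stayed past it in the same direction under every alternative that was run. These include Mdm2 at 8 and 16 HPI and from 16 to 24 HPI, Trp53inp1 at 16 and 24 HPI, Phlda3 and Ccng1 at 24 HPI, Aen at 24 HPI and Btg2 at 8 and 16 HPI. Without the replicate block, 3 of the 10 genes passed at 16 HPI, 4 at 24 HPI and 5 over the time course. From 8 to 16 HPI 0 passed, from 16 to 24 HPI 1 did, and 1 was past 2-fold at 24 HPI. Among all 13771 genes 706 passed at 16 HPI, 153 at 24 HPI and 535 over the course, against 3055, 2068 and 4126 with the block. In the 2 steps 207 and 111 of all genes passed, against 2088 and 1352. Past 2-fold at 24 HPI were 23 of all genes, against 113. With only the 2 groups compared, 1 of the 10 genes passed at 1 HPI, Cdkn1a, and 5 passed from 16 to 24 HPI. Of all 13771 genes 448 and 1308 passed in these comparisons, against 38 and 1352 in the main fit. With genes over 1 CPM in all 18 libraries, Eda2r dropped out and 1 of the group was past 2-fold at 24 HPI. So were 24 of all 11870 genes kept by that filter. Leaving out single libraries gave 1 to 3 genes past the test from 8 to 16 HPI, the lowest without replicate 1 at 16 HPI. Without that library 1355 of 13741 genes passed between these times. The change of Cdkn1a at 3 HPI turned from 0.27 to -0.0011 without the 2 libraries highest in residual rRNA. The cause of these differences was not tested. The lowest counts were those of Eda2r, 8 to 70 per library, and Btg2, 21 to 131.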
